A study of Mus musculus with 6 samples.

Results

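Inhibitory neurons make GABA, load it into vesicles and release it onto chloride channels. Here 5 genes linked to these neurons and their synapses were followed in murine brainstem gliomas with and without the histone mutation H3.3K27M. The members are Gad2, Slc32a1, Slc12a5, Iqsec3 and Erbb4, all found by symbol in a deposited table of 223 genes that differed between the groups. They were chosen by function from a table that holds significant genes only, so their difference between the groups was part of the choice and is given as a description, with no test of its own. RNA was sequenced from 6 tumours, 3 of each group, raised in C57BL/6 mice that carry the Nestin tv-a transgene and a floxed p53 gene. The Nestin promoter drives the viral receptor tv-a in neural progenitors, and this is how viruses bring tumour genes into them. The tumours of both groups had PDGF-B and had lost p53. The mutant histone, found in human diffuse midline gliomas and known to impair Polycomb methylation of histone H3, was present in 3 tumours, called H3.3K27M here. The other 3 lacked it and are called H3.3WT here after their titles; the labels do not say whether wild-type H3.3 had been introduced. All H3.3K27M titles begin with 12 and all H3.3WT titles with 11, and what these numbers mark cannot be told apart from the mutation. H3.3K27M replicates 1 and 2 also share the second number of their titles, 623, which the other 4 tumours do not, and the labels do not say what it marks.

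Gad2 encodes one of the enzymes that make GABA from glutamate, and Slc32a1 encodes VGAT, the transporter that fills synaptic vesicles with GABA or glycine. Slc12a5 encodes KCC2, a neuronal potassium-chloride cotransporter. By pumping chloride out of the cell it lets GABA receptors inhibit mature neurons. Iqsec3 encodes an exchange factor for Arf proteins that sits with gephyrin at inhibitory postsynapses. Erbb4 encodes a receptor tyrosine kinase for neuregulins. It is prominent in cortical interneurons, but neural progenitors and some glia express it as well. In brainstem, glycine is released beside GABA by many inhibitory neurons, and VGAT serves both transmitters.

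Gad2, Slc32a1 and Iqsec3 had the largest differences between the groups of the 5, and Erbb4 took a course of its own among the tumours. The upstream sequences of these 4 are shown so that their base composition can be set beside those courses. Each is the 250 bases before the RefSeq start on the gene's own strand (GRCm38.p6, chr2:22622077-22622326 plus strand for Gad2, chr2:158610508-158610757 plus strand for Slc32a1, chr6:121473679-121473928 minus strand for Iqsec3 and chr1:69108060-69108309 minus strand for Erbb4), with CpG dinucleotides in capitals.
Gad2: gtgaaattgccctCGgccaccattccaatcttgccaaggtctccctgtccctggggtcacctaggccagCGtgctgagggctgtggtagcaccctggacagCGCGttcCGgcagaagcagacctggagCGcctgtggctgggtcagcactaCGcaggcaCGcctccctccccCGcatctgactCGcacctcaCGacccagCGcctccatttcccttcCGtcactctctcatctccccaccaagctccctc
Slc32a1: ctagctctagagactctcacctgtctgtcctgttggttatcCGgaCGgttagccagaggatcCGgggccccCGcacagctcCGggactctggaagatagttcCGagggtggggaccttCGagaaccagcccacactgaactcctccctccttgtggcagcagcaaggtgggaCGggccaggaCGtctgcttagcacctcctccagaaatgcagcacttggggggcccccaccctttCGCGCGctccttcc
Iqsec3: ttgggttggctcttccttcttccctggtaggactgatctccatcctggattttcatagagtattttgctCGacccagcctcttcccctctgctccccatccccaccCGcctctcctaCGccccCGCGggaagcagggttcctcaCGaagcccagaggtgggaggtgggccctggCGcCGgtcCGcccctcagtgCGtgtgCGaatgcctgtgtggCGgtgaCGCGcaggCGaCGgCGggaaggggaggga
Erbb4: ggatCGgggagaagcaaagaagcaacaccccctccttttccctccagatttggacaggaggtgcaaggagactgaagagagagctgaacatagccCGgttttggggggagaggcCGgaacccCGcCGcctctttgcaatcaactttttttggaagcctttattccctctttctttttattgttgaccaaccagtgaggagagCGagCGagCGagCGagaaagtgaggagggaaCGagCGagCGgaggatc

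The windows held 13 CpGs for Gad2, 12 for Slc32a1, 17 for Iqsec3 and 12 for Erbb4. The 2 annotated starts of Slc12a5 had 13 and 16 in windows of the same length. All 6 windows lay above the median of 6 CpGs over 32851 RefSeq windows. Among windows of genes in the deposited table the median was 13 CpGs, over 220 windows of the 150 genes that matched by symbol, so the members' CpG numbers lay near that of the listed genes. Of all windows, 23.5% held at least as many CpGs as Iqsec3 and 33.5% at least as many as Slc32a1 or Erbb4. By GC content Erbb4 was lowest at 54.0%, against 61.2% to 67.2% for the other 5 windows and a median of 52.4% over all windows. Both strands were searched for letters of 4 known elements. The right-hand part of the RE1 element bound by the neuronal repressor REST (GGACAG) was found 2 times in the Gad2 window and 1 time each in those of Slc32a1 and Erbb4, and 18.7% of all windows hold it. The left-hand part of RE1 (TCAGCACC, in 1.32% of windows), a TATA box (TATAAA, in 12.4%) and a cAMP response element (TGACGTCA, in 1.55%) were in none of the members' windows in that exact spelling, and no matches overlapped. Variant spellings were not searched. In the printed Gad2 sequence AGCACC, the last letters of the left-hand part, stands shortly before a GGACAG. The Slc32a1 sequence holds AGCACC too. These shorter letters were read from the printed sequences and were not part of the search. The share of all windows that hold them was not counted, so nothing is read from them. Whether REST binds the Gad2 or the Slc32a1 window was not tested.

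Of the genes that equip a cell to make and package GABA, Gad2 and Slc32a1 are listed, and both were several-fold higher in H3.3K27M tumours. Gad1, another gene for making GABA, is not listed, and no level is known for it. Gad2 (ENSMUSG00000026787, chromosome 2) was at 667, 200.4 and 628 normalized counts in H3.3K27M replicates 1, 2 and 3 and at 55.3, 61.5 and 24.0 in H3.3WT replicates 1, 2 and 3. H3.3K27M replicate 2 was the lowest mutant tumour, and it still held 3.26 times the level of the highest H3.3WT tumour. The means were 499 ± 259 and 46.9 ± 20.1 (SD, n = 3 each). Their ratio is 10.6 in the authors' deposited table (adjusted p = 0.0166). In bulk tumour RNA, a difference in the number of cells that hold this RNA and one in RNA per cell cannot be told apart. This holds for the other members too, and which cells their RNA came from was not tested.

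Slc32a1 (ENSMUSG00000037771, chromosome 2) was at 379, 170.4 and 517 normalized counts in H3.3K27M replicates 1 to 3 and at 53.3, 51.7 and 20.7 in the H3.3WT tumours in the same order. The groups did not overlap, and the lowest mutant tumour was again replicate 2 and the lowest H3.3WT tumour replicate 3. The authors' deposited table gives an 8.47-fold higher level (adjusted p = 0.0183) for means of 355 ± 174 and 41.9 ± 18.4 (SD, n = 3 each). The antisense gene Gm14205, which shares 697 bases of exon with Slc32a1 in GENCODE M21, is in the table too. It was at 57.5, 30.0 and 102 normalized counts in the mutant tumours and at 5.03, 6.83 and 4.36 in the others. Whether the counting used strand is not given in the sources used here, so reads from the shared stretch cannot be assigned to 1 of the pair.

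The proportion of Gad2 to Slc32a1 was similar in 5 of the 6 tumours. The ratio of their normalized counts lay between 1.04 and 1.19 in the H3.3WT tumours and was 1.76, 1.18 and 1.22 in H3.3K27M replicates 1, 2 and 3. The ranges overlapped, and replicate 1 alone stood above the rest.

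On the receiving side of the synapse, the cotransporter and the postsynaptic factor were higher as well. Slc12a5 (ENSMUSG00000017740, chromosome 2) was at 1461, 642 and 1835 normalized counts in H3.3K27M replicates 1, 2 and 3 and at 360.3, 219.6 and 146 in the H3.3WT replicates. The lowest mutant tumour exceeded the highest H3.3WT tumour 1.78 times. In the authors' deposited table the difference is 5.43-fold (adjusted p = 0.0449), which lies close to the largest adjusted p in the table, 0.0495.

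Iqsec3 (ENSMUSG00000040797, chromosome 6) was at 763, 346 and 609 normalized counts in the mutant tumours and at 109, 98.6 and 55.6 in the others. Its means were 573 ± 211 and 87.6 ± 28.2 (SD, n = 3 each), and relative to its mean it varied less within groups than Gad2, Slc32a1 and Slc12a5, with a coefficient of variation (SD over mean) of 36.8% and 32.2%. The authors' deposited table gives a 6.53-fold higher level with adjusted p = 0.00114, the smallest adjusted p of the 5.

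Erbb4 (ENSMUSG00000062209, chromosome 1) differed least. It was at 433, 661 and 457 normalized counts in H3.3K27M replicates 1, 2 and 3 and at 149.9, 196 and 309.7 in the H3.3WT replicates. The groups did not overlap, but the gap was narrow, with the lowest mutant tumour at 1.40 times the highest H3.3WT tumour. The means were 517 ± 125 and 219 ± 82.2 (SD, n = 3 each), a 2.36-fold higher level in the authors' deposited table (adjusted p = 0.0306).

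**Figure D1:**
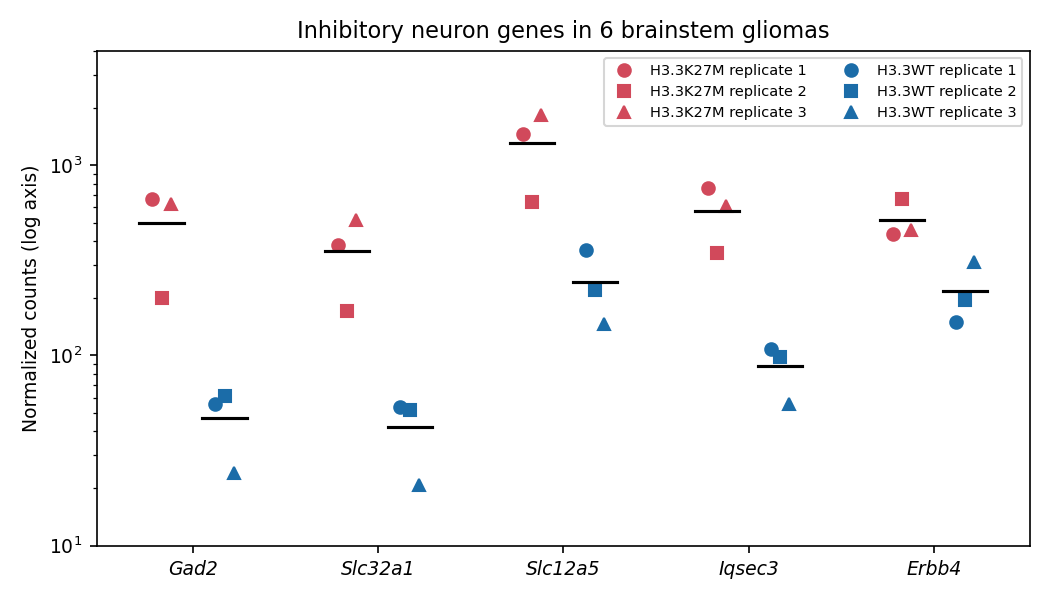
Normalized counts (log axis) of the 5 genes in each tumour, H3.3K27M in red and H3.3WT in blue, with bars at the group means of 3 tumours. For Gad2, Slc32a1, Slc12a5 and Iqsec3 the lowest red point is replicate 2 and the lowest blue point replicate 3, while for Erbb4 these are the highest points of their groups.

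All 5 members are in the table as higher in H3.3K27M tumours, which 1.11% of 16365 gene tests were; 0.251% were lower and 1.36% differed in either direction. The rule drew them from that table, so nothing is read from this. In all 5 the groups did not overlap, as in 99.6% of the listed genes. Ordered by fold change among the 223 listed genes, Gad2 was at place 19, Slc32a1 at 29, Iqsec3 at 42, Slc12a5 at 46 and Erbb4 at 117. In the authors' deposited table the median log2 fold change was 2.71 over the members, 1.58 over the 182 listed genes that were higher in H3.3K27M tumours and 1.31 over all listed genes.

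H3.3K27M replicate 2 and H3.3WT replicate 3 were the lowest tumours of their groups for Gad2, Slc32a1, Slc12a5 and Iqsec3 and the highest for Erbb4, so the fold of each member was also taken without them. Both also had the lowest size factor of their groups, the divisor that scales reads for depth, at 0.968 and 0.917. What part depth has in their values was not tested. Without H3.3K27M replicate 2, the fold rose from 10.6 to 13.8 for Gad2 and from 8.47 to 10.7 for Slc32a1, while that of Erbb4 went from 2.36 to 2.03. Without H3.3WT replicate 3, the folds were 8.54 for Gad2, 6.76 for Slc32a1, 4.53 for Slc12a5, 5.53 for Iqsec3 and 2.99 for Erbb4. For Slc12a5 it was H3.3WT replicate 1 that lay furthest from the mean of its group, and without it the fold went from 5.43 to 7.18. The fold of Erbb4 thus moved the opposite way from those of Gad2 and Slc32a1 at both steps.

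Each of the 5 genes varied more among tumours of 1 group than the median listed gene. In H3.3K27M tumours the coefficient of variation was 52.0% for Gad2, 49.1% for Slc32a1, 46.5% for Slc12a5, 36.8% for Iqsec3 and 24.3% for Erbb4, where the median over the listed genes with a mean of at least 10 normalized counts was 22.1%. In H3.3WT tumours it was 42.8% for Gad2, 43.8% for Slc32a1, 45.0% for Slc12a5, 32.2% for Iqsec3 and 37.6% for Erbb4, against a median of 20.8%. Erbb4 thus varied least of the 5 in H3.3K27M tumours, and Iqsec3 did in H3.3WT tumours. Of the 222 genes at that minimum level, 91.9% varied less than Gad2 among H3.3K27M tumours and 76.1% among H3.3WT tumours. For Erbb4 these shares were 57.7% and 70.7%.

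To look at the tumours apart from the group difference that chose the genes, each gene's group mean was taken from its log2(normalized count + 1), which leaves its deviation within the group. Gad2, Slc32a1, Slc12a5 and Iqsec3 all fell below their group mean in H3.3K27M replicate 2 and in H3.3WT replicate 3. In H3.3K27M replicate 2 the deviations were -1.13 for Gad2, -0.91 for Slc32a1, -0.90 for Slc12a5 and -0.65 for Iqsec3, on the log2 scale. In H3.3WT replicate 3 they were -0.83, -0.87, -0.63 and -0.59 in the same order. Erbb4 deviated upwards in both, by 0.38 and 0.57.

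Over the 6 tumours, the deviations of the 4 genes correlated with each other with Pearson's r between 0.89 and 0.97 in their 6 pairs, with Spearman's rho between 0.49 and 0.89. Erbb4 correlated with each of them at r between -0.94 and -0.87, with rho between -0.89 and -0.60. Across all pairs of the 222 listed genes the median r was 0.09, and 3.84% of pairs had r above 0.9. These values describe 6 tumours whose genes share a library and whose deviations sum to 0 in each group, so they carry no p. Erbb4 against the mean of the other 4 gave r = -0.93, which lay between -0.97 and -0.91 when 1 tumour was left out. Without both H3.3K27M replicate 2 and H3.3WT replicate 3 it was -0.79, and the deviations that remained were small, at most 0.36 for Slc12a5 and 0.19 for Erbb4. That r rests on only 2 tumours in each group. From H3.3K27M replicate 1 to 3, with all tumours kept, the deviation of Erbb4 rose from -0.23 to -0.15. Slc32a1 (0.23 to 0.68) and Slc12a5 (0.29 to 0.61) rose too, while Gad2 (0.61 to 0.52) and Iqsec3 (0.49 to 0.16) fell. Among H3.3K27M tumours the opposite course of Erbb4 to the 4 genes together thus rests on replicate 2.

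**Figure D2:**
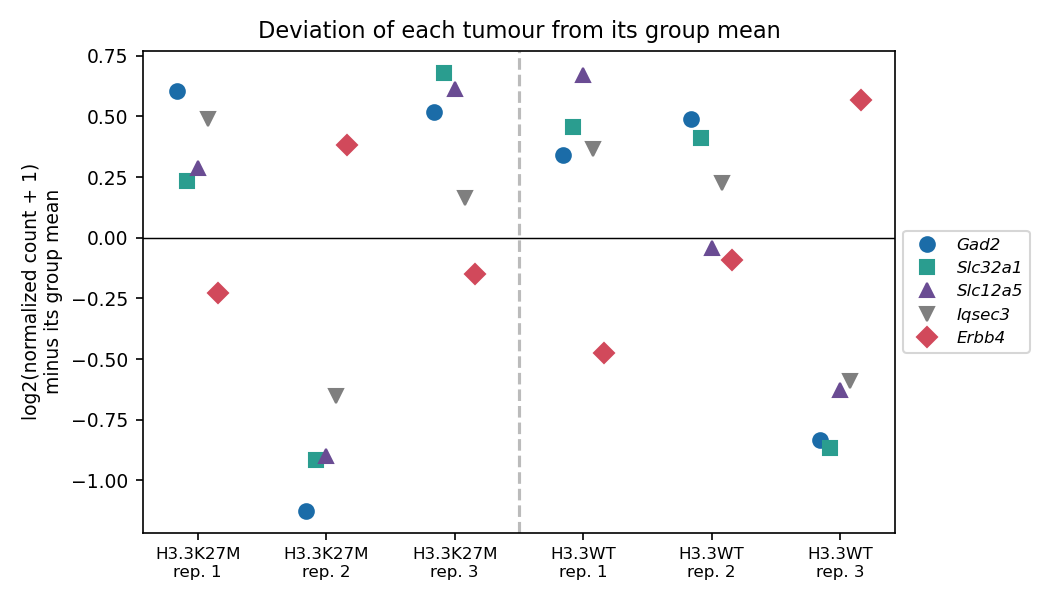
Deviation of each tumour from its group mean, as log2(normalized count + 1), for the 5 genes. In H3.3K27M replicate 2 and H3.3WT replicate 3 the points of Gad2, Slc32a1, Slc12a5 and Iqsec3 lie between -1.13 and -0.59, and those of Erbb4 lie at 0.38 and 0.57.

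Many listed genes shared the course of the 4. Of 176 other genes that were higher in H3.3K27M tumours, 27 had r above 0.9 with the mean deviation of the 4 genes, and 55 had r below 0. None of the 176 had a lower r than Erbb4. Among the 5 listed genes closest to the mean deviation of all 5 members were Tuba4a, an alpha-tubulin (r = 0.98), Ndrg4, a gene of the N-myc downstream-regulated family (r = 0.98), Tmem151a, a transmembrane protein gene (r = 0.98) and Pcp4l1, a relative of the calmodulin regulator Pcp4 (r = 0.97), each over 6 tumours. At pseudocount 5 in place of 1, 3 of the 5 were still among the closest 5. Erbb4 itself had r = -0.90 with the mean deviation of all 5 members. Tuba4a, Ndrg4, Tmem151a and Pcp4l1 ran against Erbb4, at r between -0.95 and -0.84. Among the genes closest to Erbb4, picked after their values were seen, were the Wnt receptor gene Fzd3 (r = 0.92), the ciliary transcription factor gene Rfx3 (r = 0.92), the latrophilin gene Lphn2 (r = 0.88) and the Hedgehog receptor gene Ptch1 (r = 0.87). Like Erbb4, they were higher in H3.3K27M tumours in the authors' deposited table, by 1.76-fold for Fzd3, 2.21-fold for Rfx3, 1.94-fold for Lphn2 and 1.56-fold for Ptch1.

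**Figure D3:**
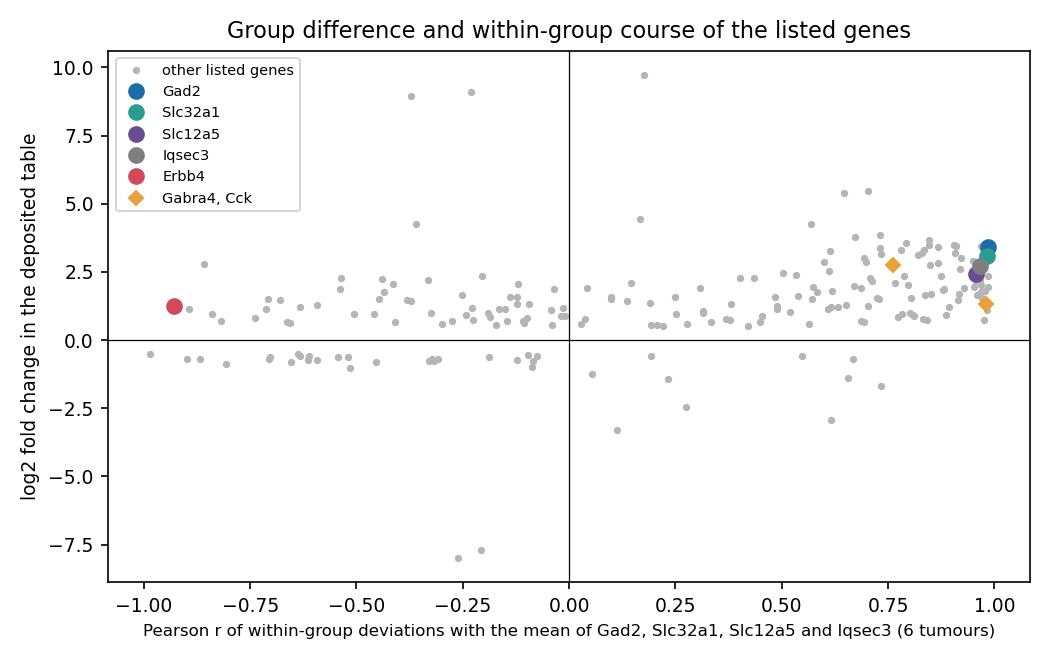
Log2 fold change in the deposited table against the Pearson r of within-group deviations with the mean of Gad2, Slc32a1, Slc12a5 and Iqsec3, for 219 listed genes with a finite fold change and a mean of at least 10 normalized counts. Those 4 genes are part of the mean and lie at the right edge, Gabra4 lies beside them, and Erbb4 lies at r = -0.93.

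Compared per kb of exon, so that genes of different length can be ordered, the level of Slc12a5 was the highest in H3.3K27M tumours, at 176 ± 81.9 normalized counts per kb (SD, n = 3). Slc32a1 followed at 127 ± 62.3 and Gad2 at 84.9 ± 44.1. Iqsec3 at 42.2 ± 15.5 and Erbb4 at 41.8 ± 10.2 were level with each other. In H3.3WT tumours the order of the levels per kb was Slc12a5 at 32.5 ± 14.6, Erbb4 at 17.7 ± 6.66, Slc32a1 at 15.0 ± 6.57, Gad2 at 7.99 ± 3.42 and Iqsec3 at 6.45 ± 2.07. The ranges over the 3 tumours overlapped between neighbours in the order of either group. The place of Erbb4 changed between single tumours of a group. In H3.3WT replicate 3 its 25.1 normalized counts per kb stood above the 19.6 of Slc12a5, and in H3.3K27M replicate 2 its 53.5 stood above the 34.1 of Gad2. In H3.3K27M replicates 1 and 3 it was the lowest of the 5, at 35.0 and 37.0.

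**Figure D4:**
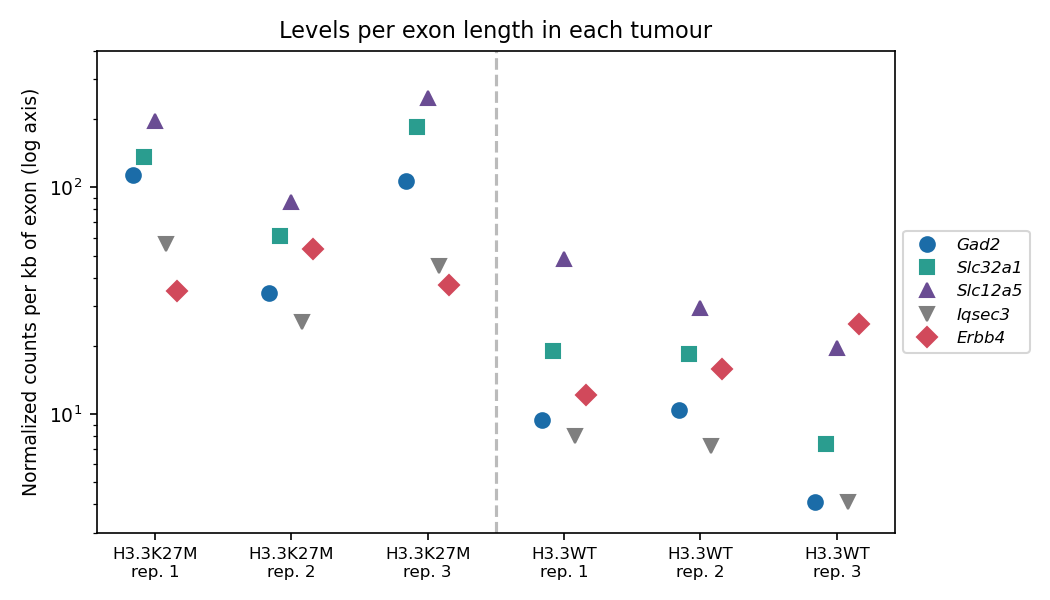
Normalized counts per kb of exon (log axis) of the 5 genes in each tumour, with exon lengths from GENCODE M21. Slc12a5 is the highest gene in every tumour except H3.3WT replicate 3, where Erbb4 at 25.1 is above it.

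The proportions of the members to each other were also compared within tumours. The ratio of Slc12a5 to Slc32a1 in normalized counts was between 3.55 and 3.86 in H3.3K27M tumours and between 4.25 and 7.05 in H3.3WT tumours, without overlap. It was the only one of the 6 ratios computed whose groups did not overlap, and the difference was not tested. The H3.3WT tumour nearest to the mutant ones, replicate 2, rests on a Slc32a1 value of 53 steps, the smallest unit in which that tumour's values move, which, read as reads, allow 38.7 to 67.7 normalized counts (exact 95% Poisson interval, counting error only). For that tumour, counting error is as wide as its distance to the mutant tumours. H3.3WT replicates 1 and 3 lay further off, at 6.75 and 7.05. If reads of the antisense gene were counted for Slc32a1, which is not known, they enter these ratios too. The ratio of Iqsec3 to Slc32a1 overlapped, at 1.18 to 2.03 against 1.91 to 2.68.

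Other genes of the GABA system were read from 9 lists of 122 genes, which include the members. Of these, 8 are in the table, 8 higher and 0 lower in H3.3K27M tumours. Leaving out the members, 3 of 117 (2.56%) are listed, beside 1.11% of all gene tests that were listed as higher. Gabra4, an alpha subunit gene of GABA-A receptors, was at 283, 167 and 269.9 normalized counts in the mutant tumours and at 115, 109 and 63.3 in the others, a 2.51-fold difference in the authors' deposited table (adjusted p = 0.0208). The fold of Gabra4 is close to that of Erbb4, while its deviations within groups followed Gad2, Slc32a1, Slc12a5 and Iqsec3 (r = 0.98 with their mean).

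Of 19 interneuron subtype markers only Cck, which encodes the neuropeptide cholecystokinin, is listed. It was at 89.6, 53.7 and 115 normalized counts in H3.3K27M tumours and at 16.1, 22.4 and 0 in H3.3WT tumours, 6.69-fold apart in the authors' deposited table (adjusted p = 0.00251). Excitatory neurons express Cck too. None of 29 transcription factors of GABA neurons, 7 genes of glycine transmission or 10 Purkinje and Golgi cell markers is in the table, and neither is Gad1. A gene outside the table was not past the authors' threshold or was not tested, and no level is known for it, so the name GABA neuron rests here on Gad2 and Slc32a1. Of 10 chloride transport genes Slc12a5 alone is listed. Wnk4, a kinase gene of the family that regulates such cotransporters, was outside that list and was picked after its values were seen. It was lower in the mutant tumours, at 110.3, 185 and 184 normalized counts against 282, 341 and 359, a 2.05-fold fall in the authors' deposited table (adjusted p = 0.0128).

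Some markers of neurons at large are listed beside these genes. Of 33 general neuron markers, 8 are in the table, all higher, and no level is known for the rest. The summed level of the 8 was 11148 to 18977 normalized counts in H3.3K27M tumours and 5071 to 7806 in H3.3WT tumours. Their mean deviation within groups followed that of Gad2, Slc32a1, Slc12a5 and Iqsec3 (r = 0.99) and ran against Erbb4 (r = -0.95). Among these markers the complexin gene Cplx1 (r = 0.97 with the 4 genes) followed the course, the synaptic vesicle gene Sv2a (r = 0.83), the surface protein gene Thy1 (r = 0.84) and Cplx2 (r = 0.78) did so less closely, and the intermediate filament gene Ina did not (r = -0.28). Camk2a, a kinase gene of excitatory neurons and the only one of 21 glutamatergic markers listed, had r = 0.92. The ratio of Gad2 to Camk2a was 0.640 to 0.820 in H3.3K27M tumours and 0.426 to 1.29 in H3.3WT tumours, which overlapped. The overlap came from H3.3WT replicate 3 alone, whose 1.29 rests on 22 steps of Gad2 and 17 of Camk2a. H3.3WT replicates 1 and 2, at 0.426 and 0.636, lay below the mutant tumours, replicate 2 only just.

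The listed glial markers differed in course from each other. The 3 listed of 16 astrocyte markers summed to 1883 to 3446 normalized counts in H3.3K27M and 804 to 1021 in H3.3WT tumours. The mean of their deviations within groups had r = 0.46 with the 4 genes. One by one their r ranged from 0.10 to 0.80, the highest being that of Slc4a4, a bicarbonate cotransporter gene. Of a list of 13 oligodendrocyte precursor markers, Bcas1 and Dll3 are in the table, and no level is known for the rest. Both were lower in the mutant tumours, at a summed 9227 to 12043 against 14923 to 16568. Most of that sum was Bcas1, at 8751 to 11375 against 14111 to 15704, which newly formed oligodendrocytes express as well. The mean deviation of Bcas1 and Dll3 ran against the 4 genes (r = -0.84) and with Erbb4 (r = 0.69). The myelin gene Ermn, 1 of 12 myelin markers, had r = 0.92 with the 4 genes, at 80.6 to 217 against 18.5 to 31.2. Of a list of 11 genes drawn up for endothelial and mural cells, only Lum and Dcn are in the table. They encode matrix proteins and are not specific to those cells, and no level is known for the rest. They summed to 872 to 1489 against 200.3 to 424, and their mean deviation had r = -0.28 with the 4 genes. None of 12 microglia and macrophage markers or 11 markers of catecholamine, serotonin and cholinergic neurons is listed. What part these cells have in the levels of the 5 genes was not tested.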

How the data were processed

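The authors deposited 1 table, whose title line calls it a list of genes that differ between H3.3K27M and H3.3WT tumours. For each tumour the authors deposited normalized counts, a signal of reads scaled for depth; DESeq and the builds mm9 and NCBIM37 are named per the submitters' processing notes, and the sources used here give no aligner, counter or use of strand. The authors also deposited group means, the ratio of these means (fold change), its log2 value, and p-values with adjusted p-values. Columns were matched to tumours by title, and 0 were left unmatched. The adjusted p-values fitted the Benjamini-Hochberg formula for 16365 tests with 223 genes under 0.05. All values were whole multiples of 1 step per tumour (within 0.01), the form of reads divided by size factors of 0.917 to 1.06. If a step is 1 read, the listed genes held 215758 to 277881 reads per tumour; total depth is unknown.

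The members and gene lists were chosen with earlier results of these data known. The text names the 5 members, the listed genes of the GABA-related and neuron lists, and the 5 genes closest in within-group deviation (mean of at least 10 normalized counts, pseudocount 1). A gene picked otherwise is said to be. Some genes that these rules take in are counted but not reported here. limma 3.58.1 (R 4.3.3) was run over the table only to count calls. It was tried on simulated data in which most genes did not change. The table holds selected genes only, so that trial does not tell how limma behaves on it. The labels do not say whether the tumours came from separate litters, and H3.3K27M replicates 1 and 2 share a title number (623) of unstated meaning. Exon lengths are from GENCODE M21 (GRCm38), where 220 of 223 genes matched, and differ in build from the counting. Upstream windows are from RefSeq (GRCm38.p6). Computations used Python 3.11.15.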

Additional observations from a re-analysis of the deposited data

How the results depend on the processing

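The log2 ratio of each member was recomputed under 11 alternatives, which were 3 pseudocounts on the log scale, group medians, equal sums over the listed genes and each tumour left out in turn. Each member stayed higher in H3.3K27M tumours in all of these and moved by less than the pooled SD of its log2 values. When 1 tumour was left out the log2 ratio lay between 3.09 and 3.79 for Gad2, 2.71 and 3.42 for Slc32a1, 2.12 and 2.84 for Slc12a5, 2.45 and 2.97 for Iqsec3, and 1.02 and 1.58 for Erbb4. No paired analysis was possible because the labels give the tumours no shared replicate numbers and the members' difference was not tested. In limma all 223 listed genes passed an adjusted p of 0.05, and 193 to 220 did so when 1 tumour was left out. As these genes were selected for the same difference, this describes the table only. With a minimum mean of 10 normalized counts all 8 listed genes of the GABA-related lists remained. Of the 5 genes closest to the members, 3 remained at pseudocount 5 and 5 without the minimum level. The fits of Erbb4 against the other 4 members without single tumours were chosen after seeing the data. Depth limits the lowest values. Gad2 in H3.3WT replicate 3 rests on 22 steps, which, read as reads, allow 15.0 to 36.3 normalized counts (exact 95% Poisson interval, counting error only).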
